A study of Mus musculus with 17 samples.

Results

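RNA from regulatory T cells (Tregs) of the spleen was compared between NOD mice that overexpress Nfkbid and NOD controls. The comparison takes 12 of the 17 libraries in the deposited count table, chosen by the genotype in the labels. The 6 transgenic libraries came from the NOD-60A.Foxp3-GFP line (genotype label NOD-60A Tg+), with 1 sample in each library. The 6 control libraries came from NOD.Foxp3-GFP mice, and each was a pool of 2 samples. The other 5 libraries, from NOD-Nfkbid-KO.Foxp3-GFP mice and likewise pools of 2, entered no test here and are set beside the rest as levels. All groups carry the Foxp3-GFP reporter by which the cells were sorted after CD4+ enrichment, and all libraries bear the same batch date. The library identifiers in the column headers place control replicates 1 and 2 among the transgenic numbers. Control replicates 3, 4 and 5 share a later range, and replicate 6 lies in another. What the identifiers stand for is not given. The promoter of the transgene, the age and sex of the mice and the number of founder lines are not given in the sources used here. A difference between genotypes cannot be told apart from one between single and pooled samples.

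NOD mice develop autoimmune diabetes, which Tregs restrain. Tregs are CD4+ T cells that depend on the transcription factor Foxp3 and suppress other lymphocytes through surface enzymes, inhibitory receptors and cytokines. Nfkbid encodes IkBNS, a nuclear member of the IkB family that has ankyrin repeats and binds NF-kB p50 dimers at promoters, and it takes part in Treg development. NF-kB is a family of transcription factors that T cell receptor, costimulatory and TNF receptor signals release into the nucleus, where they drive genes of survival, proliferation and inflammation.

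Not every row of the count table holds the reads of the gene it names, so the position of a gene sets how far its row can be read. Ribosomal protein genes are transcribed in all cells, and their rows show this. The 3 that start within 5 Mb of the start of their chromosome, Rps9, Rps20 and Rpl28, had mean counts of 8020.5, 4922 and 1068.7 over the 12 libraries. Of the 49 beyond 50 Mb, 5 reached a mean of 100 counts, and their median was 1. The B2m, Pkm, Tmsb4x and Tmsb10 rows, all far from a chromosome start, were at 0 in all 12 libraries. Other abundant genes as far along were not at 0: the Myl6, Gapdh and Ubb rows had at least 886, 685 and 260 counts in each library. The change with distance was not clean. Among genes that are abundant in most cells, Ppia at 6.4 Mb of chromosome 11 had a mean of 2361 CPM (the library-scaled count). Fau and Eef1g, at 6.06 and 8.97 Mb of chromosome 19, had 88.6 and 64.7 CPM. Fth1 at 9.98 Mb of chromosome 19 had 7.38 CPM, and Rpl37 at 5.12 Mb of chromosome 15 had a mean of 22.6 counts. Between 5 and 10 Mb levels were thus mixed, so a name there is less sure. Genes that start within 10 Mb of a chromosome start in GRCm38 are described below by name. Among them, those with no exon of another protein-coding gene within 5 kb are called isolated, and anything farther along a chromosome is called a row.

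**Figure D1:**
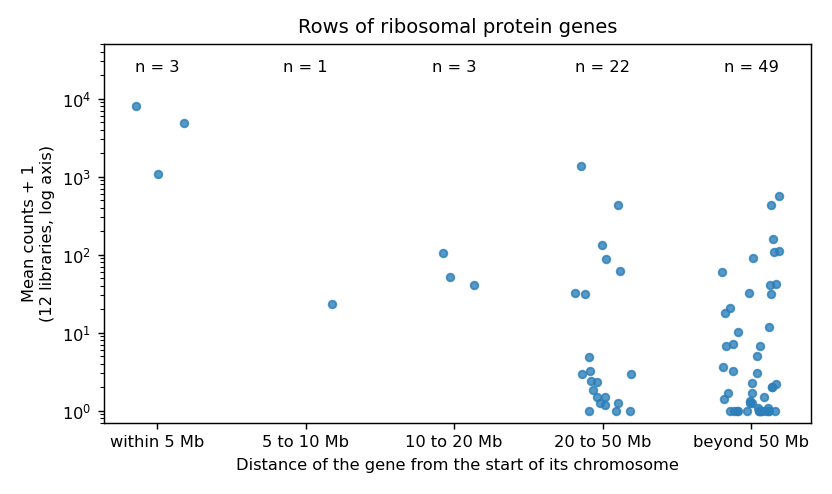
Mean counts plus 1 (log axis, 12 libraries) of the rows of 78 ribosomal protein genes, 1 point per gene, by the distance of the gene from the start of its chromosome. The 3 genes within 5 Mb lie above 1000, and beyond 50 Mb the median mean count is 1.

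The libraries held 3210557 to 3366512 counts in the transgenic group and 3133359 to 4726589 in the control group. Before TMM scaling a count of 3 corresponded to 0.635 to 0.957 CPM, which covers counting error only. The CPM levels given here are TMM-scaled, so this limit shifts with the scaling factor of each library. Transgenic replicate 1 stood apart, with a TMM scaling factor of 0.841 against 0.976 to 1.02 in the other transgenic libraries and 0.955 to 1.07 in controls. The mitochondrial share of counts was 19.7 to 24.8% in transgenic and 19.999 to 24.0% in control libraries, a difference of 0.303 percentage points (exact two-sided permutation test, p = 0.76, n = 6 and 6). Adjusted p-values below are from edgeR's quasi-likelihood F test on the 12 libraries, with Benjamini-Hochberg adjustment over all 9242 tested rows. Nothing in the labels says how samples were assigned to libraries, so they measure the spread between these libraries.

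Among all tested rows 1226 passed the threshold of 0.05, 13.3% of those tested, with 785 higher (8.49%) and 441 lower (4.77%) in transgenic libraries. Within 10 Mb of a chromosome start 783 genes were tested, and 129 were higher and 36 lower. The transgenic and control libraries did not overlap for 109 of the 783 genes, and for 7.5% of all tested rows (4.98% higher and 2.52% lower). The first 10 Mb of chromosome 14 gave 45 of the 129 higher calls. Without it 84 of 731 genes were higher and 36 lower, and among isolated genes outside it 41 of 262 were higher and 15 lower. The median log2 fold change of those 731 genes was 0.04, beside -0.01 over all tested rows. Lower calls depended on transgenic replicate 1: without it 662 rows of the table and 69 genes near chromosome starts were lower, with 926 and 137 higher. With upper-quartile scaling the split was 626 higher and 610 lower in the table, and 107 and 58 near starts. With the knockout libraries in the fit it was 522 and 217 in the table, and 105 and 23 near starts.

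**Figure D2:**
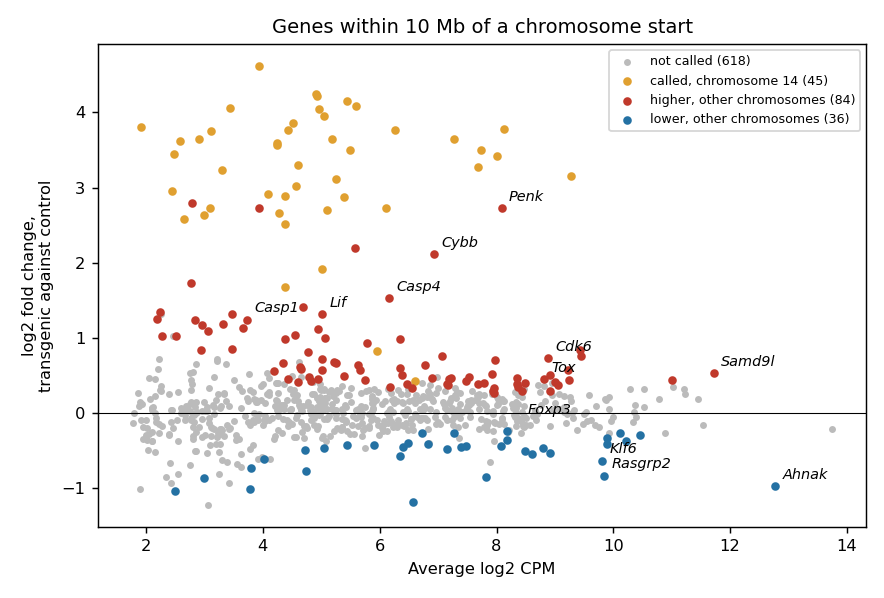
Log2 fold change of transgenic against control libraries (6 and 6) against average log2 CPM for 783 genes within 10 Mb of a chromosome start, 1 point per gene. Coloured points passed an adjusted p of 0.05: 45 on chromosome 14, and elsewhere 84 higher and 36 lower, with Penk the highest of the labelled genes and Ahnak the lowest.

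Penk had the smallest adjusted p of the genes near chromosome starts. It encodes preproenkephalin, the precursor of the enkephalin opioid peptides, which some Tregs transcribe. Penk lies at chromosome 4:4133531-4138819 on the minus strand and is isolated. Its level was 417 to 544 CPM (median 465) in transgenic libraries and 60.4 to 88.1 CPM (median 66.7) in controls. The lowest transgenic library thus stood far above the highest control. The log2 fold change was 2.73 ± 0.11 (SE), a 6.63-fold difference, with an adjusted p of 6.5e-13. When all 17 libraries were scaled together, the knockout libraries had 119 to 259 CPM (median 178), between the transgenic range of 407 to 533 CPM and the control range of 59.0 to 86.3 CPM.

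Foxp3, which defines the lineage and drove the sort, did not pass the test. It had 293 to 349 CPM (median 324) in transgenic and 330 to 373 CPM (median 348) in control libraries, with overlapping groups. Its log2 fold change was -0.12 ± 0.08 (adjusted p = 0.351), and over 22 alternative settings it stayed between -0.18 and -0.09. The list of Treg identity genes holds 33 members, of which only Foxp3 and Penk lie near a chromosome start. Of its 19 tested rows 5 were higher and 1 lower, beside 8.49% and 4.77% of all tested rows, with a median log2 fold change of 0.15. The rows beyond 10 Mb that were named from this list are Entpd1 and Nt5e, for the ectoenzymes CD39 and CD73 that make adenosine, and Izumo1r, for a folate receptor of Tregs. Their values were 1.10 ± 0.20, 0.51 ± 0.08 and 0.59 ± 0.08 on the log2 scale, and which genes' reads these rows hold was not established.

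Cybb, the catalytic subunit of the phagocyte NADPH oxidase, was 4.32-fold higher. It is an isolated gene at chromosome X:9435252-9487771. Levels were 146 to 247 CPM (median 189) in transgenic libraries and 31.7 to 60.2 CPM (median 47.7) in controls, with no overlap. The log2 fold change was 2.11 ± 0.15 (adjusted p = 8.3e-09). Knockout libraries had 48.9 to 95.6 CPM, below the transgenic range of 142 to 242 CPM on the same scale, and their range overlapped that of the controls, 31.2 to 58.8 CPM.

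Cybb is abundant in myeloid and B cells, so markers of other cells are given beside it. The monocyte and macrophage list has 19 members, of which 7 rows were tested, 3 were higher (Cybb and the Mpeg1 and Ms4a6c rows) and none lower, with a median of 0.21. The summed level of the list was 514 to 624 CPM in transgenic and 257 to 314 CPM in control libraries. This sum includes Cybb itself and rows beyond 10 Mb, so it is not separate from the 3 calls. Mean levels of Cybb, Mpeg1 and Ms4a6c were 196, 140 and 111 CPM in transgenic and 45.5, 63.9 and 71.6 CPM in control libraries. Retn, the only other member of the list near a chromosome start, had at most 0.353 CPM in any library. Near-start markers of other lineages differed widely in level. Ncr1 of NK cells reached 0.582 CPM, Cd209a of dendritic cells 0.706 CPM, Fcer2a of B cells 1.499 CPM and Sdc1 of plasma cells 3.60 CPM. Xbp1, a transcription factor abundant in plasma cells, had 330 to 562 CPM in transgenic and 280 to 337 CPM in control libraries, and its log2 fold change was 0.32 ± 0.12 (adjusted p = 0.0837). Ctsw, a protease of cytotoxic cells, was at -0.21 ± 0.14 with 22.3 to 36.9 CPM over all libraries, and Gata1, an erythroid factor, at -0.02 ± 0.20 with 10.2 to 24.4 CPM. Lyn, a Src-family kinase of B and myeloid cells, had 3.11 to 10.6 CPM in transgenic and 5.82 to 18.3 CPM in control libraries, and its log2 fold change of -0.81 ± 0.32 did not pass (adjusted p = 0.101) in the 12-library fit. Lyn passed in 2 of 22 alternatives, at -1.01 without transgenic replicate 1 and at -0.80 when all rows with at least 1 count were tested. Among tested rows of the other lists, 1 of 7 was higher for B cells (Siglecg), 2 of 4 for plasma cells (Prdm1 and Irf4), 1 of 5 for CD8 T and NK cells (Tyrobp), 1 of 2 for erythroid cells and 1 of 4 for platelets, and 1 of 3 was lower for conventional CD4 T cells (Tcf7). Beside these and the monocyte counts, 8.49% of all tested rows were higher and 4.77% lower. The part of other cells in the Cybb difference was not tested. In bulk RNA, fewer cells of a type and less RNA per cell cannot be told apart.

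The inflammatory caspases Casp4 and Casp1 were higher. Casp4, which binds intracellular lipopolysaccharide, had 94.0 to 115 CPM (median 105) in transgenic and 21.0 to 48.9 CPM (median 38.4) in control libraries. Casp1, the protease that matures interleukin-1 beta, had 14.8 to 22.1 CPM (median 17.7) against 5.33 to 10.8 CPM (median 7.29). Neither gene's groups overlapped. The log2 fold changes were 1.53 ± 0.15 (adjusted p = 6.2e-07) and 1.24 ± 0.18 (adjusted p = 0.00010). They are neighbours of related sequence on chromosome 9, at 5308828-5336783 and 5298517-5307265, so reads of one may be counted in the other. Knockout levels of Casp4 were 21.9 to 52.1 CPM, alongside 20.5 to 47.7 CPM in controls on that scale.

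Of the apoptosis list 5 genes near chromosome starts were tested, and the third that rose was Birc2. Birc2 encodes cIAP1, a ubiquitin ligase of TNF receptor signalling that restrains cell death. It had 155 to 233 CPM (median 210) in transgenic and 129 to 184 CPM (median 145) in control libraries, which overlap, with a log2 fold change of 0.43 ± 0.11 (adjusted p = 0.0106). Its neighbour Birc3 was at -0.09 ± 0.09 and Rb1cc1, an autophagy scaffold, at -0.12 ± 0.10. Neither passed. None of the 5 genes was called lower, and their median was 0.43. Over all 17 tested rows of the list 4 were higher and 1 (Bcl2) lower, with a median of -0.09. Of all tested rows 8.49% were higher and 4.77% lower.

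The promoters of Casp4, which rose, and of Rasgrp2, which fell, are shown because each holds a match to the NF-kB kappaB consensus. The RefSeq sequences below run from 250 bases before the transcript start to 50 after it in GRCm38, both on the plus strand: chr9:5308599-5308898 for Casp4 and chr19:6399625-6399924 for Rasgrp2. Capitals mark the matching bases.
Casp4: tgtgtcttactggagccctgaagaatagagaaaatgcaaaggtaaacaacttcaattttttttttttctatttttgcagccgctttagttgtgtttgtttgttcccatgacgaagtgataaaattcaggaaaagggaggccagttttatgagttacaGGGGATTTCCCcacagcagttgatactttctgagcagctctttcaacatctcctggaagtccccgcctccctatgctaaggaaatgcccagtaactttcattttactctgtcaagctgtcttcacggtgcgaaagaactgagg
Rasgrp2: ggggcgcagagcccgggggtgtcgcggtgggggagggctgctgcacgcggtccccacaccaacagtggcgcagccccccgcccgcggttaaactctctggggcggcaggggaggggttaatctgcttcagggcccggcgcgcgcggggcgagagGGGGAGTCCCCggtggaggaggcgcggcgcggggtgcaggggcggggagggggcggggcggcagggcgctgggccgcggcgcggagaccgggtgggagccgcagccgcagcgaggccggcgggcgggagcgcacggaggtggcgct
The Casp4 matches overlap one another and start 93 and 92 bases before the transcript start. Those of Rasgrp2 start 96 and 95 bases before it. Both strands were searched, and 4.51% of the 32851 promoters in the RefSeq table held a match. A later Rasgrp2 promoter in that table, chr19:6401455-6401754, held none, nor did the promoters found for Lif, Klf6, Cybb and Cdk6. Of the other called protein-coding genes near chromosome starts outside chromosome 14, Tfe3, Zdhhc24 and Plekhg1, all higher, held a match. Promoters were found for 47 of 64 higher and 20 of 33 lower protein-coding genes outside chromosome 14, under 80% of each, so a check over those sets is void. A match describes letters in a window and not a bound site.

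Among cytokine signalling genes near chromosome starts Lif was called higher and Bambi lower. Lif, an interleukin-6 family cytokine, is isolated at chromosome 11:4257557-4272514. Its level was 37.8 to 57.6 CPM (median 42.3) in transgenic libraries and 13.9 to 22.8 CPM (median 18.2) in controls. The groups did not overlap, and the log2 fold change was 1.31 ± 0.14 (adjusted p = 1.5e-06). Knockout libraries had 23.0 to 37.6 CPM, above the 13.6 to 22.2 CPM of controls on that scale. Lifr, the receptor subunit for Lif, was near 0, with at most 2.07 CPM in any library.

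Of the 6 cytokine genes near chromosome starts that were tested, Lif was called higher and Bambi, a decoy receptor of TGF-beta family ligands, lower. Bambi was scarce, at 1.81 to 5.23 CPM against 3.56 to 10.2 CPM. Its log2 fold change was -1.04 ± 0.33 (adjusted p = 0.0418), and the call was lost in 10 of 22 alternatives. Among these were the fits without transgenic replicate 2, 4, 5 or 6 or control replicate 2, 3, 4 or 5, and the value ranged from -1.22 to -0.88. Not passing were Osm, another interleukin-6 family cytokine, at -0.40 (adjusted p = 0.0538), Il7r, the interleukin-7 receptor of naive and memory T cells, at -0.38 ± 0.20, and Ptger4, a prostaglandin E2 receptor, at -0.05 ± 0.08. Over all 34 tested rows of this list 5 were higher and 6 lower, beside 8.49% and 4.77% of all tested rows. The list median was -0.05.

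Cdk6 and Mcm10, which act in the cell cycle and in replication, were higher. Cdk6, the kinase that pairs with D-type cyclins in G1, is isolated at chromosome 5:3341485-3531008. It had 453 to 667 CPM (median 604) in transgenic and 297 to 401 CPM (median 356) in control libraries, with no overlap and a log2 fold change of 0.73 ± 0.10 (adjusted p = 6.0e-05). Knockout levels of Cdk6, 322 to 370 CPM, lay inside the control range of 290 to 393 CPM. Mcm10, a replication initiation factor, had 28.3 to 60.0 CPM (median 40.0) against 14.8 to 26.8 CPM (median 17.9) in controls, a log2 fold change of 1.12 ± 0.18 (adjusted p = 0.00024).

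Shcbp1 and Suv39h2 were named after their values were seen. Shcbp1, a protein of the dividing cell's midbody, had 21.8 to 35.0 CPM against 8.44 to 20.4 CPM and a log2 fold change of 0.98 ± 0.20. Suv39h2, a histone H3 lysine 9 methyltransferase, was at 0.71 ± 0.13. Neither gene's groups overlapped. Of the proliferation list 4 genes near chromosome starts were tested, of which Cdk6 and Pold4 were called higher and none lower, with a median of 0.59. Pold4, a subunit of DNA polymerase delta, was at 0.45 ± 0.14 and lost its call in 9 of 22 alternatives, among them the fits without transgenic replicate 2 or 5 or control replicate 1, 3 or 4, with values from 0.39 to 0.50. Cdca5, the cohesin regulator sororin, was at 1.02 ± 0.39 (adjusted p = 0.090). Over the 19 tested rows of the list 7 were higher and 1 lower, beside 8.49% and 4.77% of all tested rows. The list median was 0.16.

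**Figure D3:**
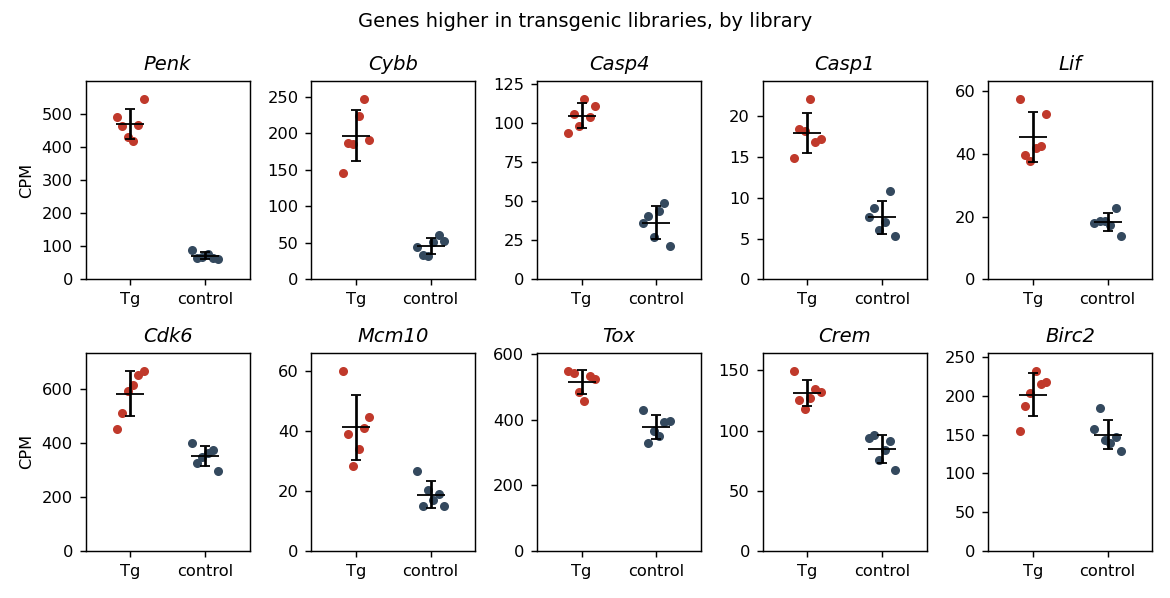
CPM in each library for 10 genes higher in transgenic (Tg) than in control libraries, 6 points per group, with the mean (bar) and SD (whiskers). For Penk, Cybb, Casp4, Casp1, Lif, Cdk6, Mcm10, Tox and Crem the groups do not overlap, and for Birc2 they do.

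Genes of T cell transcription changed in both directions. Tox, an HMG-box factor induced by persistent T cell receptor signals, is isolated and was higher, with 458 to 550 CPM (median 531) against 329 to 429 CPM (median 381) in controls and no overlap. Its log2 fold change was 0.45 ± 0.08 (adjusted p = 0.0012). Crem, a cAMP-responsive modulator of transcription, had 118 to 150 CPM (median 130) against 67.5 to 96.2 CPM (median 87.6), a log2 fold change of 0.63 ± 0.10 (adjusted p = 0.00020). Klf6, an immediate early zinc finger factor, was lower. It had 569 to 975 CPM (median 662) in transgenic and 870 to 1328 CPM (median 1069) in control libraries, with 1 transgenic library, replicate 1, inside the control range. Control replicates 1, 2 and 6 had 870 to 943.5 CPM, and control replicates 3 to 5 had 1194.5 to 1328 CPM. The log2 fold change of Klf6 was -0.64 ± 0.14 (adjusted p = 0.0033).

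Of the 17 genes of this list near chromosome starts 3 were higher and 2 lower, beside 8.49% and 4.77% of all tested rows. Their median was 0.00. Tfe3, a lysosomal and metabolic factor, at 0.26 ± 0.08, and Men1, the scaffold menin, at -0.24 ± 0.07, complete the calls. Tfe3 lost its call in 15 of 22 alternatives (0.20 to 0.29) and Men1 in 10 (-0.30 to -0.22). These include the fits without transgenic replicate 2, 5 or 6 or any control replicate for Tfe3, and without transgenic replicate 2, 4, 5 or 6 or control replicate 3, 4 or 5 for Men1. Gata3, the type 2 helper factor that Tregs also use, was at -0.22 ± 0.10 (adjusted p = 0.141), and Dnmt3a, a DNA methyltransferase, at 0.01 ± 0.08. Over all 41 tested rows of the list 7 were higher and 5 lower, and the median was -0.03.

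Of 7 T cell receptor signalling genes near chromosome starts 3 were lower and 1 higher, with a median of -0.17. Rasgrp2, a calcium- and diacylglycerol-regulated exchange factor that activates Rap1, had 582 to 728 CPM (median 634) in transgenic and 1009 to 1362 CPM (median 1115) in control libraries. No library of one group reached the other, and the log2 fold change was -0.84 ± 0.09 (adjusted p = 2.0e-06). Rasgrp2 lies at chromosome 19:6399340-6415216, close to Pygm, and is not isolated. On the 17-library scale the knockout libraries had 1022 to 1107 CPM, inside the control range of 985 to 1342 CPM and above the transgenic range of 570 to 709 CPM.

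Pag1, a lipid raft adaptor that brings the inhibitory kinase Csk to the receptor, had 230 to 469 CPM (median 424) against 498 to 640 CPM (median 570) in controls. Its log2 fold change was -0.54 ± 0.13 (adjusted p = 0.0099), and this call was lost only in the fit of all 17 libraries. Tagap, a GTPase-activating protein of activated T cells, was at -0.57 ± 0.14 (adjusted p = 0.0076), with overlapping groups. Control replicates 1, 2 and 6 had 69.9 to 81.4 CPM of Tagap, and control replicates 3 to 5 had 109 to 126 CPM. Ptprcap, a protein associated with the phosphatase CD45, was called higher at 0.50 ± 0.16 (adjusted p = 0.0463). It overlaps Coro1b on the genome and lost its call in 13 of 22 alternatives, without transgenic replicate 1, 2, 3 or 5 or control replicate 1 to 5 among them, with values from 0.31 to 0.59. Over all 32 tested rows of the list 1 was higher and 8 lower, beside 8.49% and 4.77% of all tested rows. The list median was -0.14.

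The gene with the highest average level among all called genes near chromosome starts was Ahnak, and it was lower. Ahnak encodes a giant scaffold protein that supports calcium channels in T cells. It lies isolated at chromosome 19:8989284-9076914 and had 3330 to 5663 CPM (median 4673) in transgenic against 7738 to 10673 CPM (median 9511) in control libraries. The groups did not overlap, and the log2 fold change was -0.98 ± 0.13 (adjusted p = 1.9e-05). Knockout libraries ranged from 4310 to 9744 CPM, across both the transgenic range of 3242 to 5535 CPM and the control range of 7621 to 10460 CPM.

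Camk1d, Camk2b and Pik3ip1 were among the 12 lowest values that the rule named. Camk1d, a calcium/calmodulin-dependent kinase, had 271 to 325 CPM (median 291) against 369 to 452 CPM (median 418), with a log2 fold change of -0.51 ± 0.08 (adjusted p = 0.00015). Camk2b, another such kinase, was scarce, at 4.82 to 10.6 CPM against 12.2 to 21.9 CPM. Neither overlapped between the groups. Pik3ip1, a transmembrane inhibitor of PI3 kinase, was at -0.55 ± 0.14 (adjusted p = 0.0154) and overlapped. Named after their values were seen, Nlrc3, a NOD-like receptor that dampens T cell and innate signals, had 741 to 909 CPM against 1034 to 1112 CPM (-0.42 ± 0.08). Kremen1 and Znrf3, both negative regulators of Wnt signalling and chosen likewise, were at -0.45 ± 0.08 and -0.44 ± 0.09. They are not among the 42 named genes whose alternative runs are counted below.

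**Figure D4:**
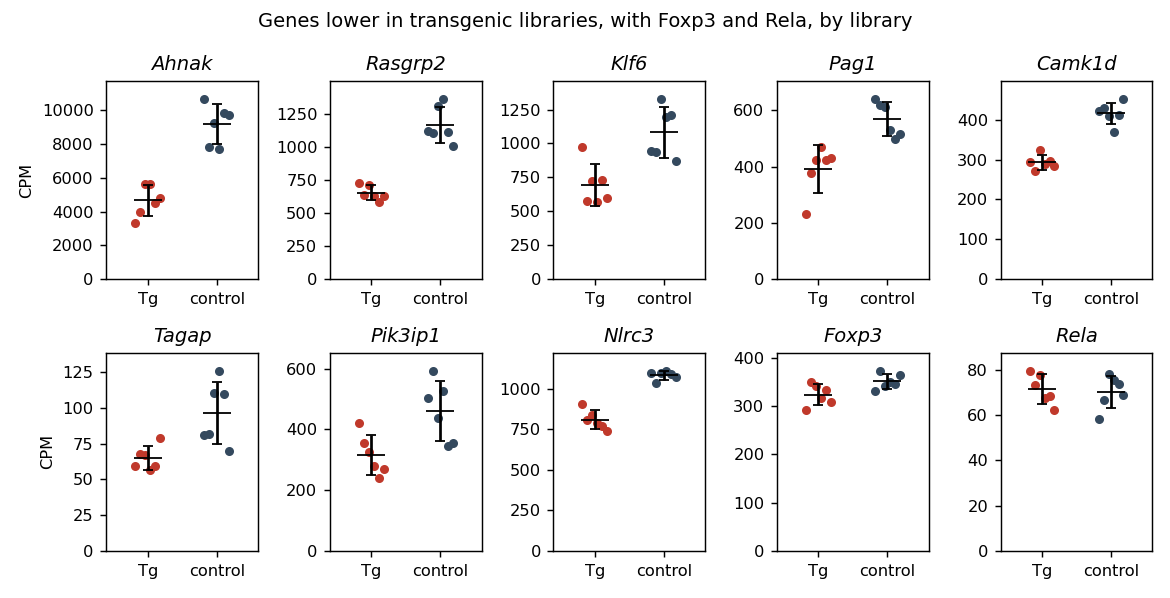
CPM in each library for 8 genes lower in transgenic (Tg) than in control libraries, with Foxp3 and Rela, which did not pass the test; 6 points per group, with the mean (bar) and SD (whiskers). Ahnak, Rasgrp2, Pag1, Camk1d and Nlrc3 do not overlap between groups, and Klf6, Tagap and Pik3ip1 do.

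Of the 42 members of the NF-kB pathway list, 3 near a chromosome start were tested, and none was called. Rela, the p65 subunit, had 62.1 to 79.5 CPM (median 70.8) in transgenic and 58.2 to 77.9 CPM (median 71.1) in control libraries, and its log2 fold change was 0.03 ± 0.10 (adjusted p = 0.903). Map3k8, a kinase bound to p105, was at -0.20 ± 0.12 and Tab2, an adaptor of the kinase TAK1, at 0.13 ± 0.12. None of these 3 passed, nor had an unadjusted p under 0.05, in edgeR, DESeq2 or limma with voom. Among NF-kB targets near chromosome starts, Birc2 alone of 4 was called, and the median was 0.11. Pim2, a survival kinase, was at 0.32 ± 0.15 (adjusted p = 0.19). Zc3h12d, an endoribonuclease that degrades inflammatory transcripts, was named after its values were seen: it had 57.2 to 63.1 CPM against 33.6 to 43.2 CPM, a log2 fold change of 0.63 ± 0.10 (adjusted p = 0.00012).

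Over the whole pathway list 4 of 33 tested rows were higher and 5 lower, and over the targets 6 of 20 were higher and 2 lower, beside 8.49% and 4.77% of all tested rows. The row named Tnfaip3, for the deubiquitinase A20 that limits NF-kB signalling, had 125 to 300 CPM against 317 to 883 CPM, a log2 fold change of -1.49 ± 0.24. Control replicates 1, 2 and 6 had 317 to 438 CPM in this row, and control replicates 3 to 5 had 731 to 883 CPM. The rows named Bcl3 and Cd83, an atypical IkB protein and an activation molecule, were at 1.26 ± 0.18 and 1.25 ± 0.12.

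**Figure D5:**
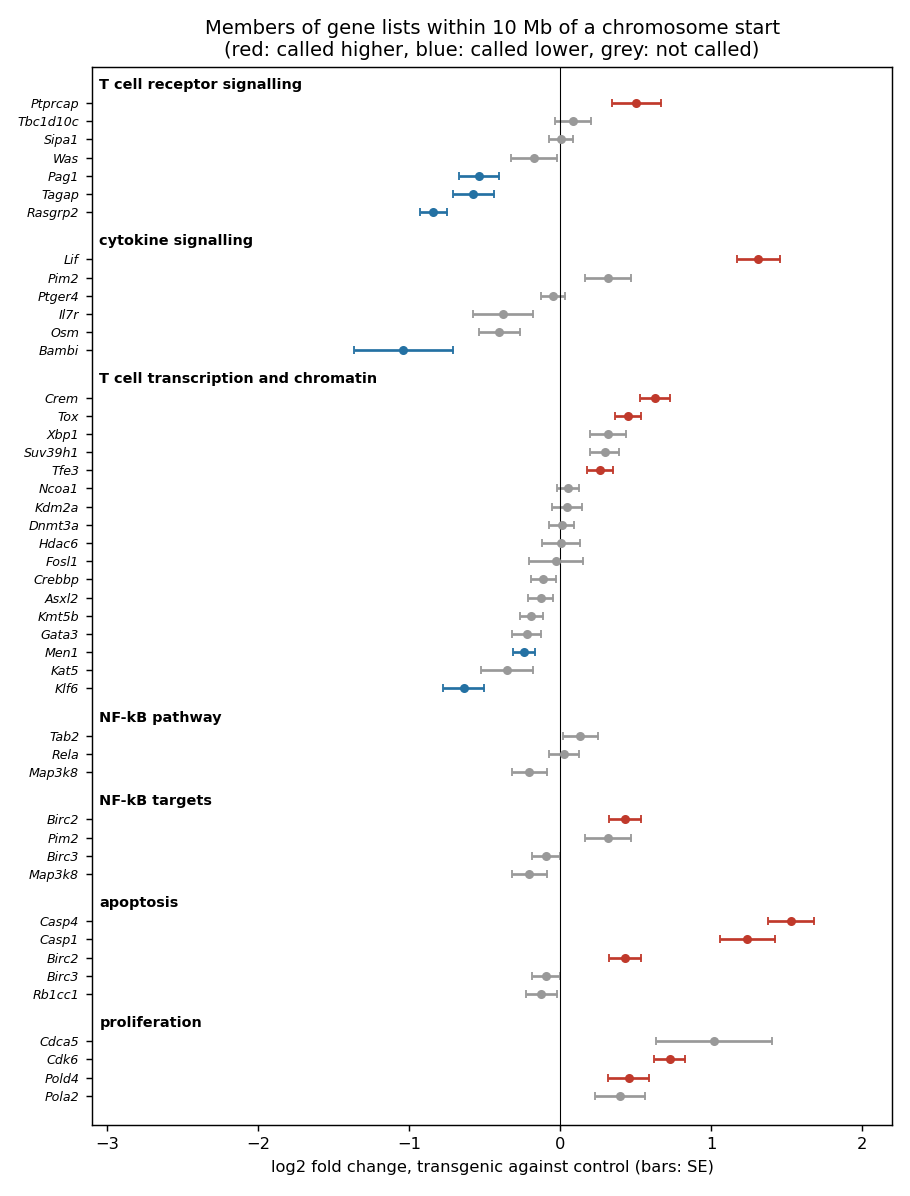
Log2 fold change of transgenic against control libraries with its SE for the tested members of 7 gene lists within 10 Mb of a chromosome start, ordered by value within each list. Red points were called higher, blue lower and grey not called: 3 of 7 receptor signalling genes are blue, and Casp4, Casp1 and Lif lie farthest to the right.

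Metabolic, structural and housekeeping genes gave few calls. None of 14 metabolic genes near chromosome starts passed in edgeR, DESeq2 or limma with voom, 4 had an unadjusted p under 0.05 in each, and their median was 0.08. The nearest was Cpt1a, which imports fatty acids into mitochondria, at 0.40 ± 0.14 (adjusted p = 0.067). It was called in 4 of 22 alternatives, the fits without control replicate 1 or control replicate 5 among them, with values from 0.29 to 0.49. Of 7 homing and cytoskeleton genes near chromosome starts only Coro1b, an actin regulator, was called, higher at 0.38 ± 0.11. Coro1b is not isolated and overlaps Ptprcap on the genome. It lost its call in 4 alternatives: without transgenic replicate 2, without control replicate 2 or 4 and with all 17 libraries. Its value ranged from 0.30 to 0.44. Over all 26 tested rows of the list 1 was higher and 2 lower, beside 8.49% and 4.77% of all tested rows.

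Rps9 was at 0.25 ± 0.13, Ppia at 0.32 ± 0.13 and Cfl1, the actin-severing cofilin, at 0.18 ± 0.16, and none passed. Transgenic replicate 1 had the highest level of each, such as 3836 CPM of Ppia against 1991 CPM in the lowest transgenic library. Malat1, a nuclear long noncoding RNA, had 10044 to 17300 CPM in transgenic and 12170 to 19854 CPM in control libraries, at -0.21 ± 0.13. It passed only in the fit without transgenic replicate 1, where its value was -0.33. None of 16 tested mitochondrial rows passed in the 3 tools, also at an unadjusted p under 0.05, and the median of the 13 protein-coding ones was 0.09.

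The first 10 Mb of chromosome 14 held the densest block of calls. There 45 of 52 tested genes were higher and none lower, 43 of them predicted genes with Gm numbers. Their log2 fold changes ran from 0.42 to 4.62, with a median of 3.45. How alike the sequences of these predicted genes are was not examined here, so values of single members are uncertain and are not given. Dnase1l3, a secreted nuclease that starts at 7.96 Mb of that chromosome, had 7.07 to 27.4 CPM in transgenic and 0.820 to 3.90 CPM in control libraries. Over 165 segments of 10 Mb with at least 20 tested rows the median share called was 12.2%, against 86.5% here. The next was the start of chromosome 6 with 38.5%, where all 10 calls of 26 genes were higher. Samd9l, an antiviral protein induced by interferon, is among them and was named after its values were seen. It had 3280 to 4560 CPM against 2312 to 3823 CPM, with a log2 fold change of 0.53 ± 0.12.

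The row named Nfkbid lies at chromosome 7:30421732-30428746, well beyond the zone in which rows are read by name here. It had 7.18 to 11.3 CPM (median 8.57) in transgenic and 3.12 to 5.47 CPM (median 4.88) in control libraries, a log2 fold change of 0.94 ± 0.22 (adjusted p = 0.0062). In knockout libraries it had 2.22 to 8.26 CPM on the 17-library scale, which overlaps the controls' 3.07 to 5.38 CPM, so this row does not check the labels. The 2 rows just before it were far higher in transgenic libraries. The Tyrobp row had 427 to 806 CPM (median 647) against 6.53 to 13.5 CPM (median 10.02), and the Hcst row had 121 to 213 CPM (median 174) where controls had 0.273 to 1.19 CPM, at about the level of a few counts. In knockouts the Tyrobp row had 10.04 to 14.4 CPM. These rows separated all 6 transgenic libraries from the other 11. Which gene's reads they hold was not established here.

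Of 28 tested rows of interferon-induced genes 14 were higher and none lower, with a median of 0.53. Over all tested rows 8.49% were higher and 4.77% lower, with a median of -0.01. Only Unc93b1, a chaperone of endosomal Toll-like receptors, lies near a chromosome start, at 0.46 ± 0.18 (adjusted p = 0.109). The rows named Ifit2 and Ifit3 were at 2.46 ± 0.30 and 1.74 ± 0.20. Knockout libraries had 225 to 735 CPM in the Ifit2 row, alongside 227 to 838 CPM in transgenic and 46.2 to 161 CPM in control libraries.

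Transgenic libraries varied more among themselves than controls. The biological coefficient of variation, fitted in each group alone, was 0.200 in the transgenic and 0.142 in the control group. The transgenic value includes replicate 1, whose TMM factor was 0.841, and was not fitted without it. Pooling of samples goes with the control group, and the part of either in this was not tested. Of 42 named genes near chromosome starts that were called, 33 kept their call in each of 22 alternative settings, 9 lost it in at least 1, and none changed sign.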

How the data were processed

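Poly(A) RNA libraries of sorted Foxp3-GFP+ splenic Tregs were made with a KAPA kit. The series' design text states about 27 M reads each, read over 67 bp and with an identifier of 9 bp. The table that the authors deposited gives expected counts for 17 libraries, 1 value per gene and library. Per the series' design text and the submitters' processing notes, the aligner was Bowtie2, on GRCm38 and the transcripts of Ensembl 102, and edgeR served for the comparisons. Whether molecular identifiers or strand entered the counting is not stated in those sources. Of 47643 rows 47224 matched a symbol and GRCm38 coordinates in GENCODE M21, and 5.873% of values were not whole and were rounded.

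Counts of 6 transgenic and 6 control libraries were fitted with edgeR 4.0.16 in R 4.3.3 (TMM, filterByExpr, quasi-likelihood F test, Benjamini-Hochberg threshold 0.05). Each SE is the log2 fold change divided by the root of its F value. On simulated data with 9242 rows, 79% of rows changed by 1 and 97% of those changed by 2 on the log2 scale were called, with 5 false calls. The simulation gave both groups the same spread and changed 200 rows, as many up as down. Its false calls therefore do not measure those in the real libraries, whose groups differed in spread. Every pair of libraries in a group differed by more than sampling noise. Alternatives were other scalings and filters, DESeq2 1.42.0, limma 3.58.1 with voom, all 17 libraries, a replicate block, unrounded counts, distances of 5 and 20 Mb and leaving out each library. Leaving out chromosome 14 and taking isolated genes only were added after the data were seen.

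The comparison, the distance rule and the 24 gene lists were chosen with earlier results of these data known. Named genes are Nfkbid, Foxp3, the 12 highest and 12 lowest called genes near chromosome starts averaging 3 or more on the log2 CPM scale, up to 6 called members and the most abundant member of each list there, up to 3 called rows of each list beyond, and called rows next to Nfkbid. Predicted, clone-named, pseudogene and receptor-segment rows were counted only. Other members of a list near chromosome starts are given to complete it, and further genes are said to be named after their values were seen.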

Additional observations from a re-analysis of the deposited data

Results flagged for a closer look

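In 12 of 124 groups of 6 values the highest or lowest library stood farther from the others than Dixon's 95% limit allows, where chance gives about 1 in 20. Transgenic replicate 1 accounts for 8 of them. It had the lowest TMM factor of its group, 0.841, and its highest levels of Cfl1 (1593.6 CPM), Ppia (3836.4 CPM), Rps9 (3740 CPM), Xbp1 (562.29 CPM) and Gata1 (24.37 CPM). Its levels of Myo1g, an isolated unconventional myosin gene of chromosome 11 (664.36 CPM), and Glcci1 (493.77 CPM) were the lowest of the group. Myo1g was lower in transgenic libraries by -0.34 ± 0.09 on the log2 scale (adjusted p = 0.0166), and Glcci1 was higher by 0.76 ± 0.14. Both genes were named after their values were seen. The Myo1g call was lost without control replicate 3, where it was -0.30, and with all 17 libraries. Suv39h2 was lowest in transgenic replicate 3 (28.603 CPM). Among controls, replicate 1 had the most counts (4726600, to 5 digits) and the highest Rasl10a (9.2727 CPM), and replicate 6 the highest Malat1 (19854 CPM).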

How the results depend on the processing

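Of the named genes and rows whose alternative runs were collected, none that was called changed direction. Of those not called, the sign turned for Rela (-0.03 to 0.06), Cfl1 (-0.01 to 0.26) and Gata1 (-0.22 to 0.07). With all 17 libraries in the fit 522 rows were higher and 217 lower (785 and 441 with 12), and 23 genes near chromosome starts were lower (36). Upper-quartile scaling gave 58 lower genes near starts, and 50.7% of all calls were then higher, against 64.0%. Leaving out 1 library gave 625 to 926 higher and 302 to 662 lower rows, and 109 to 138 higher and 26 to 69 lower genes near starts, the most lower calls being without transgenic replicate 1. At 5 Mb the genes near starts numbered 63 higher and 15 lower, and at 20 Mb 59 were lower. Without chromosome 14, 84 were higher, and isolated genes gave 73 higher and 15 lower. The cause of these changes was not tested, beyond the number of genes that each distance or subset leaves. Same-numbered replicates did not pair (correlations -0.041 to 0.089), and the replicate block gave 723 higher and 390 lower rows, and 126 higher genes near starts. The largest move of the median log2 fold change between scalings was -0.06. A level under 3 counts, 0.635 to 0.957 CPM before TMM scaling, cannot be told from 0.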
